A study of Mus musculus with 4 samples.

Results

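The genes described here act from the end of G2 to the separation of daughter cells. The set of 34 was listed by name, and each gene was represented by the probe set that names it alone and is brightest over the 4 arrays. Of the 34, 33 had such a probe set among the 18193 genes measured, and Ccnb1, encoding cyclin B1, was not analysed here. They were sorted by role into cyclins and kinases (7 genes measured), the spindle checkpoint (7), the kinetochore (6), the spindle and chromosomes (8) and cytokinesis (5). The fourth of these groups took the genes that the other 4 roles did not cover.

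Expression had been measured on Affymetrix arrays in T29, a mouse cell line from a thymic lymphoma. One pair of arrays came from cells exposed to MRK003, a gamma-secretase inhibitor (GSI), and one pair from cells given DMSO, the solvent. The labels write the inhibitor dose as 5 mM and the exposure as 36 h, a unit that could not be checked, and repeat that text for all 4 samples, so the sample titles alone separate the groups. No label names a genetic alteration of the line or says that the replicates of a group were separate cultures, so the p-values measure only the spread between these arrays, which may be technical. All values are from 1 line.

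Entry into mitosis depends on Cdk1 bound to cyclins A and B, whose transcripts, like those of most genes in this set, accumulate in G2 and fall in G1. Many of these genes share a promoter layout in which a cell cycle genes homology region (CHR) lies near the start site, often with CCAAT boxes upstream. The CHR is bound by the MuvB complex, as part of the repressing DREAM complex in resting cells and with B-Myb and FoxM1 in cycling ones, and the CCAAT box is bound by NF-Y. In T lineage cells that carry active Notch, gamma-secretase inhibition is known to remove the released Notch domain, and in some human T-cell leukaemia lines to slow or arrest the cycle in G1.

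The promoter layout is described first, because it is a property of these genes that their selection did not use. RefSeq promoter windows (GRCm38.p6, 250 bases before to 50 after the start of a gene) were held for 28 of the 33 measured genes. The letters TTTGAA, on either strand, were taken for the CHR and CCAAT, on either strand, for the CCAAT box. A match of one can share end bases with a match of the other. TTTGAA stood in a window of 21 of the 28 genes (75%), against 2263 of 14452 measured genes with a window (15.7%). CCAAT stood in 20 of the 28 (71.4%), against 42% of the measured genes. Both stood in windows of 18 of the 28 (64.3%), against 6.21% of the measured genes. Of 30 G1/S and DNA replication genes with a window, 23.3% held TTTGAA, 66.7% CCAAT and 16.7% both. Within 100 bases before to 50 after the start, TTTGAA stood in 20 of the 28 mitotic genes (71.4%), in 6 of the 30 G1/S genes (20%) and in 6.5% of the measured genes. A match of letters is a description, and no binding was measured.

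**Figure D1:**
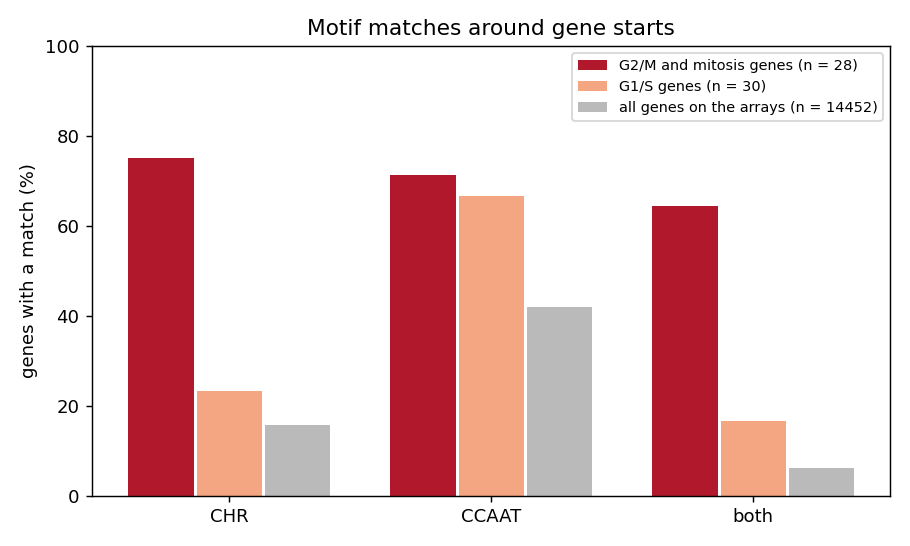
Share of genes (percent, vertical axis) with TTTGAA (CHR), CCAAT or both in a RefSeq promoter window, for 28 G2/M and mitosis genes, 30 G1/S genes and 14452 measured genes. TTTGAA was found in 75% of the G2/M and mitosis genes, 23.3% of the G1/S genes and 15.7% of all, while the first 2 groups lay close together for CCAAT (71.4% and 66.7%).

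The 250 bases before the start are printed for the 3 genes of the set with the smallest p-values in the comparison below and a window, Ccnb2, Plk1 and Kif2c. Cdk1 and Cdc20 were added, after the values had been seen, because in them both motifs lie upstream and close to the start. Capitals mark TTTGAA and CCAAT or their reverse complements, and each sequence is on the strand of its gene, 5′ to 3′. The windows are chr9:70421555-70421804 on the minus strand for Ccnb2, chr7:122159185-122159434 on the plus strand for Plk1 and chr4:117178773-117179022 on the minus strand for Kif2c. Those of Cdk1 and Cdc20 are chr10:69352913-69353162 and chr4:118437344-118437593, both on the minus strand.
Ccnb2: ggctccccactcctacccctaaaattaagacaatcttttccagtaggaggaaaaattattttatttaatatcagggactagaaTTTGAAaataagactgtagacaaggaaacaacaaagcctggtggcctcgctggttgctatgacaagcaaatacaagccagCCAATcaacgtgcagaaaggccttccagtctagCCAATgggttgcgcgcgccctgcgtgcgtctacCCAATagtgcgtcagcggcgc
Plk1: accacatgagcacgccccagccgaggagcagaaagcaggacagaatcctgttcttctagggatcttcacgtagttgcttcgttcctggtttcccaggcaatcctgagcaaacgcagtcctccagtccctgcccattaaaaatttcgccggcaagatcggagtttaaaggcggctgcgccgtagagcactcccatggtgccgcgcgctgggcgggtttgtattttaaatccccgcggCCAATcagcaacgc
Kif2c: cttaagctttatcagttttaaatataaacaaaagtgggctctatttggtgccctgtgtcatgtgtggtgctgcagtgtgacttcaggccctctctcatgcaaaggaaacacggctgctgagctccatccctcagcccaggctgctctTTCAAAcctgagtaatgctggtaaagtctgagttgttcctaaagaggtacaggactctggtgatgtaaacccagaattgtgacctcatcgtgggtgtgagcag
Cdk1: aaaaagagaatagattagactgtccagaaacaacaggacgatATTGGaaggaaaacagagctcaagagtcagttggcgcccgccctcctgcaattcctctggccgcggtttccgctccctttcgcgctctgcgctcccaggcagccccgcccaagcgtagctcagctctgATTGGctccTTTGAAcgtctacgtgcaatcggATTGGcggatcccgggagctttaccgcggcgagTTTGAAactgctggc
Cdc20: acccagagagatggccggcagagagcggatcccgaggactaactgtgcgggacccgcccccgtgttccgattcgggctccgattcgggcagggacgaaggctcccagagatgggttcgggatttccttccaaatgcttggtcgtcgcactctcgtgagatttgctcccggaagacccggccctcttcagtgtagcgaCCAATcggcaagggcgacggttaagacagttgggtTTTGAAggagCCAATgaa
In Ccnb2 TTTGAA begins 167 bases before the start and 3 CCAAT boxes begin 87, 54 and 21 bases before it, and a further TTTGAA begins at base 5 after it. Plk1 has its only TTTGAA at base 31 after the start, so its printed stretch shows a CCAAT box alone, 14 bases before the start. Kif2c has its match on the opposite strand, 103 bases before the start, and no CCAAT. The Cdk1 stretch has a pair of TTTGAA matches, 71 and 15 bases before the start, and that of Cdc20 has 1, at 18 bases, between 2 CCAAT boxes.

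The comparison of GSI with DMSO arrays asks how far these transcripts moved when gamma-secretase was inhibited. The values are log2 expression made with RMA, as deposited, and each difference is GSI minus DMSO on that scale from limma, fitted over all 18193 genes and adjusted by Benjamini-Hochberg. Calls required an adjusted p below 0.05. None of the 33 mitotic genes was called, and unadjusted p-values below 0.05 were reached by 1 higher and 1 lower gene. Among all genes 4.12% were called (2.56% higher and 1.56% lower). At that share 33 genes would include 1.36 calls, so in this fit a count of 0 lies near the background. An unadjusted p under 0.05 was reached by 21.5% of all genes and by 2 of the 33 (6.06%). The groups did not overlap in 18 of the 33, with GSI above DMSO in 9 and below it in 9, a share of 54.5% against 51.4% of all genes. In cultures measured in bulk, a changed share of cells in G2 or mitosis and a changed amount of a transcript per such cell cannot be told apart, and opposite changes of both would not show.

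The differences of the 33 genes ran from -0.25 to 0.27, with 17 means higher and 16 lower in GSI and a median of 0.012, against -0.012 over all genes. The median size of a difference, without its sign, was 0.072 in the set and 0.12 over all genes. All 33 moderated 95% intervals, which were not adjusted for their number, lay inside -0.5 to 0.5, and the bound farthest from 0 was 0.49, a 1.40-fold difference. Of all genes 72.8% had an interval inside these limits, and of the 6064 genes at least as bright as the dimmest of the set 69.6% had one and 7.34% were called.

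The same 4 arrays carried large falls of known Notch targets, named here as a check that the groups differ. Dtx1, encoding a ubiquitin ligase of the Notch pathway, stood at 6.04 and 5.88 on the GSI arrays, against 9.60 and 9.38 on the DMSO arrays (difference -3.53 ± 0.11, SE; limma, adjusted p = 0.000534). Hes1, Nrarp and Ptcra, encoding a repressor, a feedback regulator and the pre-T cell receptor alpha chain, differed by -2.26, -2.42 and -1.70 (limma, adjusted p = 0.00101, 0.00101 and 0.00274). With 1 array left out almost no gene of the arrays passed, so failing to pass there says little about a gene. Over 11 alternatives, those with an array left out among them, differences were -3.64 to -2.26 for Dtx1 and -2.32 to -2.20 for Hes1. For Nrarp and Ptcra they were -2.52 to -2.20 and -1.79 to -1.61. The median array level of all genes lay between 5.77 and 5.82. Of 9 measured T lineage markers 7 were above the median gene and 4 were called (Thy1, Cd8a and Cd4 higher, Cd3g lower), whereas Cd2 and Cd5 were below it at 4.18 and 4.05. The mean of the T lineage list was 9.32 to 9.37 on the GSI arrays and 9.18 to 9.20 on the DMSO arrays. All 4 measured B cell markers, 4 of 5 myeloid, 2 of 3 erythroid and 5 of 6 stromal and epithelial markers were below the median gene. Their list means were 4.09 to 4.11, 4.885 to 5.17, 5.42 to 5.54 and 4.54 to 4.596 with GSI, against 4.11 to 4.18, 4.80 to 4.895, 5.17 to 5.57 and 4.74 to 4.85 with DMSO, and their part in the results was not tested. Among these markers Pdgfrb, encoding a growth factor receptor of mesenchymal cells, fell to 7.39 and 7.42 with GSI, against 8.77 and 8.60 with DMSO (difference -1.28; limma, adjusted p = 0.00475). Itgam, encoding the myeloid integrin CD11b, was below the median gene on all arrays at 4.59 and 4.04 with GSI, against 3.45 and 3.08 with DMSO (difference 1.05; limma, adjusted p = 0.0561). Of the 5 called markers, Cd8a and Pdgfrb passed in all 7 alternatives that kept all arrays, and Cd3g, Thy1 and Cd4 each in 5. Over all 11 alternatives the differences were 0.93 to 1.22 for Cd8a and -1.37 to -1.16 for Pdgfrb. Those of Cd3g, Thy1 and Cd4 were -0.50 to -0.44, 0.47 to 0.58 and 0.62 to 0.87.

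**Figure D2:**
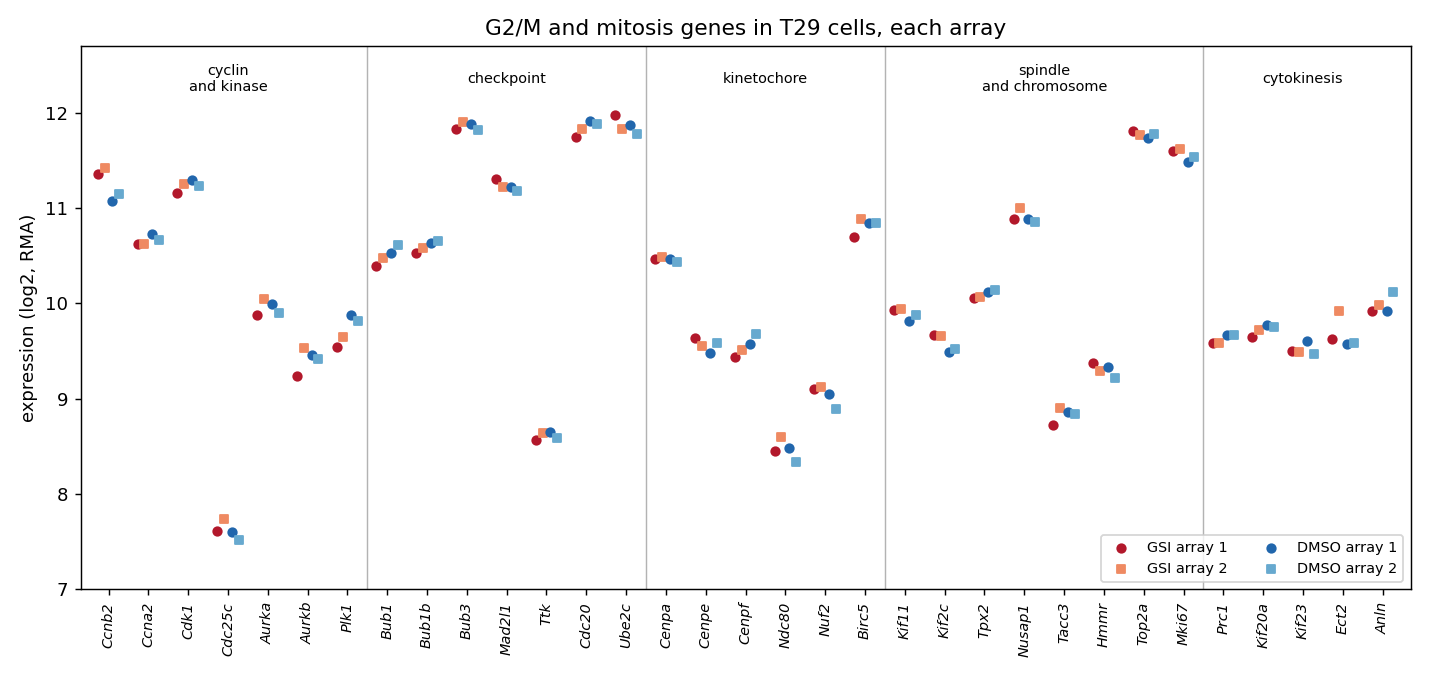
Log2 expression (vertical axis) of the 33 measured G2/M and mitosis genes on the GSI arrays (red circles and orange squares) and the DMSO arrays (dark blue circles and light blue squares), with the genes in 5 groups by role. The group means part most for Ccnb2, with GSI above, and Plk1, with GSI below.

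Cyclins and kinases held both genes with an unadjusted p under 0.05, and they pointed in opposite directions. Ccnb2, encoding the mitotic cyclin B2, was at 11.35 and 11.42 with GSI, against 11.07 and 11.15 with DMSO. Its lower GSI array lay above its higher DMSO array, and the difference was 0.27 ± 0.09 (SE; 95% interval 0.06 to 0.49; limma, adjusted p = 0.147), or 1.21-fold. Ccnb2 was the only gene of the set called under any alternative, with a robust prior that follows intensity (limma, adjusted p = 0.0227). Over the 7 alternatives that kept all arrays its adjusted p ran from 0.0227 to 0.237 (limma). Plk1, the kinase that drives centrosome maturation and mitotic entry, was at 9.54 and 9.65 with GSI, against 9.87 and 9.81 with DMSO. Both GSI arrays were the lower ones, with a difference of -0.25 ± 0.09 (SE; 95% interval -0.47 to -0.03; limma, adjusted p = 0.192).

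The partners of these genes stayed closer to 0. Cdk1, the kinase at the centre of mitotic entry, was at 11.16 and 11.25 with GSI, against 11.30 and 11.23 with DMSO, and its groups overlapped (difference -0.05, 95% interval -0.27 to 0.16). Ccna2, encoding cyclin A2, which partners Cdk2 and then Cdk1, was at 10.63 and 10.62 with GSI and at 10.72 and 10.67 with DMSO. Its GSI arrays were lower by 0.07 on average, with a 95% interval of -0.28 to 0.13. Cdc25c, a phosphatase that activates Cdk1, was the dimmest gene of the set, at 7.62 and 7.73 with GSI against 7.60 and 7.51 with DMSO (difference 0.12). The Aurora kinase genes Aurka, acting at centrosomes, and Aurkb, acting in the chromosomal passenger complex, differed by 0.012 and -0.053, with overlapping groups. For Aurkb the GSI arrays lay 0.30 apart (9.24 and 9.53), more than any other gene of the set, and both DMSO arrays (9.46 and 9.42) fell between them. A dimmer Aurkb probe set stood at 9.05 and 9.22 with GSI, against 9.41 and 9.39 with DMSO, a difference of -0.27 (limma over all probe sets, unadjusted p = 0.0383, adjusted p = 0.272). Both Aurkb probe sets thus had lower means with GSI, by unlike amounts. The 95% interval of the brighter one, -0.35 to 0.24, includes -0.27.

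Genes of the spindle checkpoint, which holds the anaphase-promoting complex (APC/C) inactive until all chromosomes are attached, differed by -0.14 to 0.08, with 3 means higher and 4 lower. Bub1, a kinase that recruits the checkpoint to kinetochores, was at 10.39 and 10.48 with GSI, against 10.52 and 10.62 with DMSO (difference -0.14, 95% interval -0.36 to 0.08; limma, adjusted p = 0.442). Bub1b, encoding BubR1 of the mitotic checkpoint complex, was at 10.52 and 10.58 with GSI and at 10.63 and 10.65 with DMSO. Cdc20, the activator of the APC/C that this complex inhibits, was at 11.75 and 11.83 with GSI and at 11.91 and 11.88 with DMSO. In these 3 genes both GSI arrays lay below both DMSO arrays. Their dimmer probe sets gave differences of the same sign, -0.012 for Bub1, -0.12 and -0.044 for Bub1b and -0.16 and -0.15 for Cdc20, and none was called.

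The other checkpoint genes showed no common direction. Mad2l1, whose product Mad2 is loaded onto Cdc20, lay above DMSO on both GSI arrays (11.30 and 11.22, against 11.22 and 11.18), by 0.06, although its nearest arrays of the groups were level at 11.22. Groups overlapped for Bub3, the binding partner of Bub1 and BubR1 (difference 0.015), for Ttk, the Mps1 kinase that starts checkpoint signalling (-0.0098), and for Ube2c, the ubiquitin-conjugating enzyme of the APC/C (0.08). A dim Bub3 probe set at 4.21 and 4.50 with GSI, against 3.51 and 3.91 with DMSO, gave the largest difference of any probe set of these genes, 0.64 (limma over all probe sets, unadjusted p = 0.010, adjusted p = 0.155). The other 4 Bub3 probe sets, the brightest among them, did not share it, with differences of -0.19 to 0.015.

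Kinetochore genes differed by -0.15 to 0.13, with 4 means higher and 2 lower. Cenpf, encoding a large protein of the outer kinetochore, was at 9.43 and 9.51 with GSI, against 9.57 and 9.68 with DMSO, with the groups apart (difference -0.15, 95% interval -0.38 to 0.07; limma, adjusted p = 0.399). Nuf2 was at 9.10 and 9.12 with GSI, against 9.05 and 8.89 with DMSO (difference 0.13), and its partner in the microtubule-binding Ndc80 complex, Ndc80, at 8.45 and 8.60 with GSI, against 8.48 and 8.33 with DMSO (difference 0.12). Both means of this pair were higher with GSI, but the groups were apart only for Nuf2. Cenpa, the histone H3 variant that marks centromeres, was at 10.46 and 10.49 with GSI and at 10.46 and 10.43 with DMSO, a difference of 0.030 with an interval of -0.17 to 0.23. Cenpe, a kinetochore motor, differed by 0.07 and Birc5, encoding the passenger protein survivin, by -0.05, both with overlapping groups. Dimmer probe sets of Cenpa and Cenpe were higher with GSI by 0.33 and 0.34 (limma over all probe sets, unadjusted p = 0.0156 and 0.0447, adjusted p = 0.189 and 0.292).

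Spindle and chromosome genes had the most means above DMSO, 6 of 8, with differences of -0.06 to 0.16. Kif2c, a motor that shortens microtubules at centromeres, was at 9.67 and 9.66 with GSI, against 9.49 and 9.52 with DMSO (difference 0.16, 95% interval -0.04 to 0.36; limma, adjusted p = 0.338). Mki67, encoding the proliferation antigen Ki-67 that coats mitotic chromosomes, was at 11.60 and 11.62 with GSI and at 11.48 and 11.54 with DMSO (difference 0.10, 95% interval -0.10 to 0.31). Kif11, the motor that pushes spindle poles apart, was at 9.93 and 9.94 with GSI and at 9.81 and 9.88 with DMSO. In each of these 3 genes both GSI arrays lay above both DMSO arrays, but the other 2 Kif11 probe sets pointed the other way, at -0.032 and -0.017. Dimmer Kif2c probe sets were at 0.047, 0.083 and -0.014, and as the mean of its probe sets Kif2c was at 0.068. Top2a, the topoisomerase that untangles sister chromatids, was at 11.81 and 11.77 with GSI and at 11.73 and 11.78 with DMSO, with overlapping groups and an interval of -0.17 to 0.24. Tpx2, which targets Aurora A to the spindle, lay below DMSO on both GSI arrays, by 0.06. Nusap1, Tacc3 and Hmmr, all spindle-associated proteins, differed by 0.07, -0.036 and 0.06, with overlapping groups.

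Cytokinesis genes had 4 means below DMSO and 1 above. Prc1, which bundles the microtubules of the central spindle, was at 9.58 on both GSI arrays, against 9.66 and 9.67 with DMSO, so each group's arrays lay within 0.0023 and 0.0027 of each other (difference -0.08, 95% interval -0.29 to 0.12). Kif20a, a motor of the central spindle, was at 9.65 and 9.72 with GSI and at 9.77 and 9.75 with DMSO, again apart. Kif23, the motor of the centralspindlin complex, and Anln, encoding the contractile ring protein anillin, differed by -0.04 and -0.07, with overlapping groups. Ect2, the exchange factor that activates RhoA at the cleavage site, was at 9.62 and 9.92 with GSI, against 9.57 and 9.58 with DMSO. Its difference of 0.20 (95% interval -0.10 to 0.49; limma, adjusted p = 0.406) rested on GSI replicate 2: without that array it was 0.050, and without GSI replicate 1 it was 0.34.

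**Figure D3:**
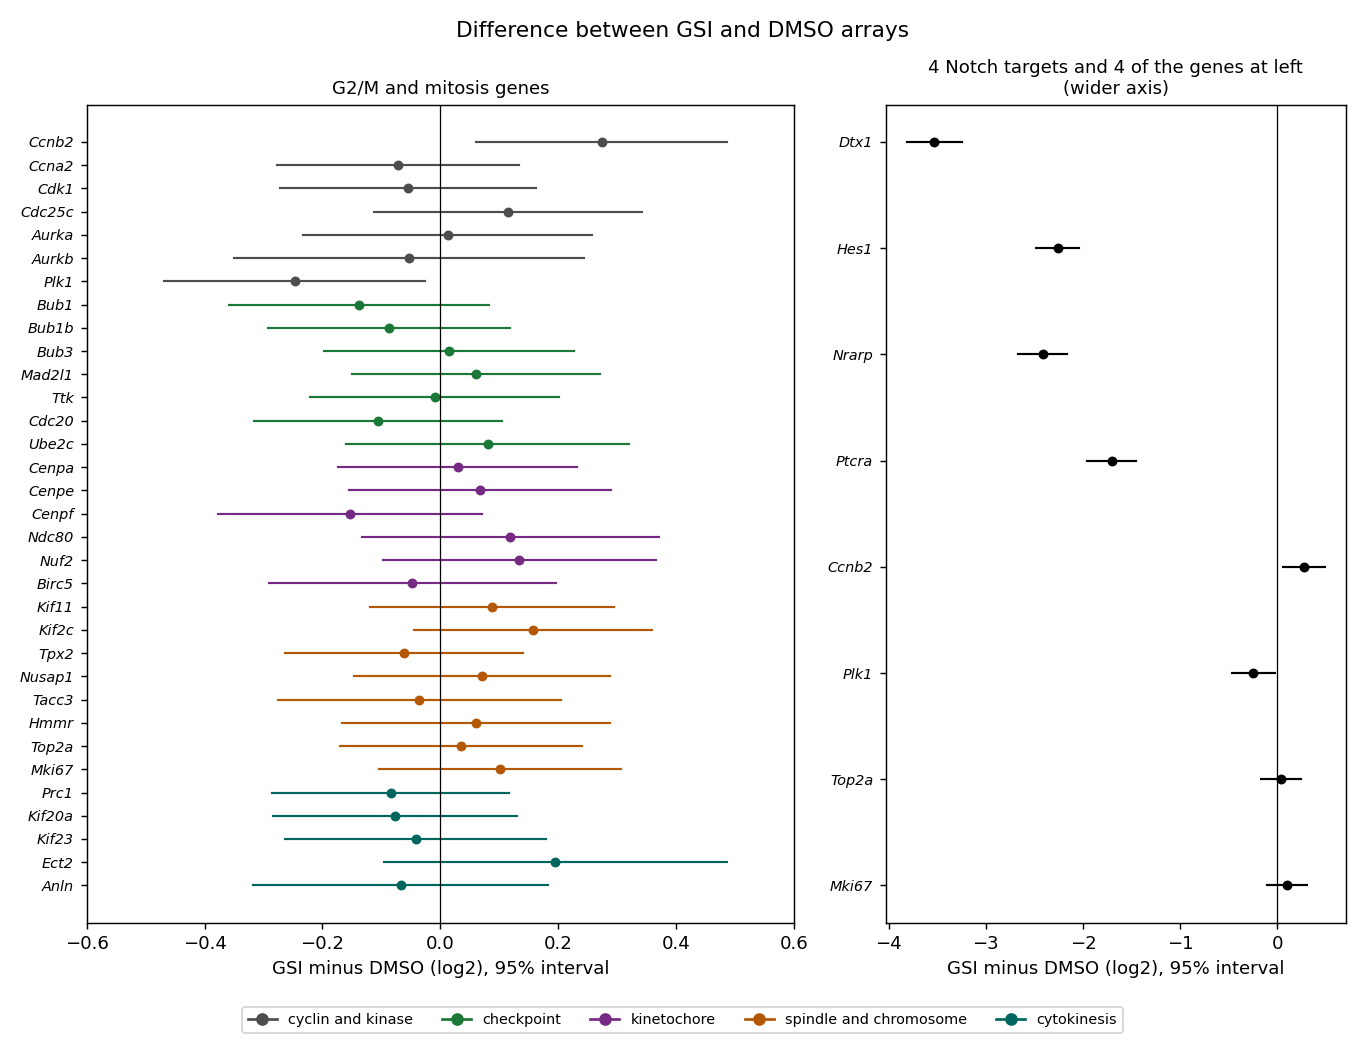
Left, GSI minus DMSO difference (log2, horizontal axis) with its moderated 95% interval for each of 33 G2/M and mitosis genes, coloured by role; all intervals lie inside -0.5 to 0.5, and those of Ccnb2 and Plk1 leave out 0. Right, the same quantity on a wider axis for 4 Notch targets (-3.53 to -1.70) above Ccnb2, Plk1, Top2a and Mki67.

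Arrays of the same group differed from each other by about as much as the groups did. The median size of the difference between arrays of a group, without its sign, was 0.076 for the GSI arrays and 0.058 for the DMSO arrays in the 33 genes. In 14 of the 33 the difference between group means was larger than both of these array differences of the same gene. This held for 7323 of all 18193 genes, a share near that of the set. Over all genes the median array differences were 0.108 for GSI and 0.109 for DMSO. A group difference compares means of 2 arrays and so carries less array noise than a difference between single arrays. GSI replicate 2 was above GSI replicate 1 in 25 of the 33 genes (median 0.062), against 8346 of all 18193 genes (median -0.014). It held the highest value of 14 of the 33 genes and the lowest of 1, whereas GSI replicate 1 held the highest of 6 and the lowest of 14. GSI replicate 2 was likewise the higher one in 33 of 37 measured G1/S genes (median 0.12) and in 26 of 30 further kinetochore genes (median 0.12). Between the DMSO arrays replicate 2 was higher in 13 of the 33 (median -0.030). The mean over the 33 genes was 10.12 and 10.18 on the GSI arrays, against 10.15 and 10.13 on the DMSO arrays, so both DMSO arrays lay between the GSI arrays.

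**Figure D4:**
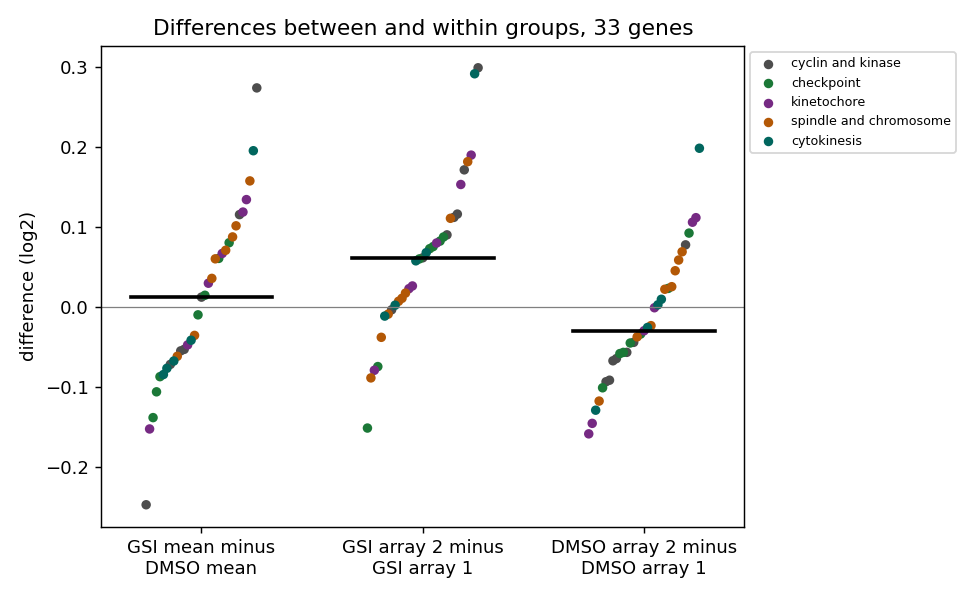
Differences (log2, vertical axis) of the 33 genes between group means (left), between the GSI arrays (middle) and between the DMSO arrays (right), each point a gene coloured by role and each bar a median (0.012, 0.062 and -0.030). Points of a column are sorted by value, and 25 of the 33 in the middle one lie above 0.

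The same genes can be read through more than 1 probe set. In all 73 probe sets named 1 of the 33 genes alone, and 22 genes had several. Of the 40 probe sets that did not stand for their gene, 29 had the sign of the one that did. With every probe set tested, none of the 73 was called, and 4 higher and 2 lower ones had unadjusted p-values below 0.05. The background shares given above are over genes. Those over all probe sets are not given here, so no reading is drawn from these counts. The 7 genes with windows but without TTTGAA had a median difference of 0.06 (-0.14 to 0.13), and the 21 with it 0.015 (-0.25 to 0.27).

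Beyond the 33, the machinery around mitosis was read through lists that were chosen with earlier results known. Of 15 measured genes of the APC/C and its helpers none was called, and 2 with lower means had unadjusted p-values below 0.05, the subunit genes Cdc23 (-0.23) and Cdc26 (-0.23), where 21.5% of all genes reached such a p. As means of their probe sets these were at -0.097 and -0.052. The second Cdc23 probe set was at -0.21, and a dim one, at a mean level of 4.61, at 0.15. Dimmer Cdc26 probe sets were at -0.046, -0.0099 and 0.075. Among 30 further kinetochore genes none was called, and the 2 with the smallest p were Cenpm (-0.31, but -0.19 without DMSO replicate 1), of the constitutive centromere network, and Pmf1 (-0.23), of the Mis12 complex. Of 22 condensin and cohesin genes none was called, with Nipbl, the cohesin loader, at 0.36 (0.19 without DMSO replicate 1 and 0.54 without DMSO replicate 2) and Espl1, the protease separase that cuts cohesin at anaphase, at -0.21. Of 27 further spindle and cytokinesis genes none was called, with Kif15, a spindle motor, at -0.29 and Cdca2, which recruits a phosphatase to chromosomes, at 0.26. As the mean of its probe sets Cdca2 was at 0.045, and 1 of its probe sets was at -0.21. Of all genes 4.12% were called, so 0 calls in lists of this size lie near the background. The 2 genes named from each list were its only ones with an unadjusted p below 0.05. The medians of these lists were -0.020, -0.010, 0.002 and 0.024, close to the -0.012 of all genes.

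Of 23 regulators of mitotic entry 1 was called, a count near the background of 4.12%, and unadjusted p-values below 0.05 were reached by 4 higher genes and 1 lower, where 21.5% of all genes reached one. Mybl2, encoding B-Myb, which joins the MuvB complex on CHR promoters in cycling cells, fell to 7.83 and 7.90 with GSI, against 8.36 and 8.34 with DMSO. The groups were apart by far more than their own arrays, with a difference of -0.49 ± 0.08 (SE; 95% interval -0.69 to -0.28; limma, adjusted p = 0.0412), or 1.40-fold. Its second probe set was lower by a like amount, at 7.02 and 7.004 with GSI against 7.43 and 7.44 with DMSO. Mybl2 missed the threshold in the test over all probe sets (limma, adjusted p = 0.0784) and with the replicate number as a block (limma, adjusted p = 0.107). Over the 7 alternatives that kept all arrays its adjusted p ran from 0.00806 to 0.107 (limma). Over all 11 alternatives, those without 1 array among them, its difference was -0.52 to -0.45. In the same list Gadd45a, a p53-induced inhibitor of Cdk1 named after its values were seen, was at 8.59 and 7.85 with GSI, against 7.10 and 6.66 with DMSO. Its difference was 1.34 (95% interval 0.69 to 1.99; limma, adjusted p = 0.0544), and it passed in 6 of the 7 alternatives that kept all arrays (adjusted p = 0.0211 to 0.0894 over the 7). Without GSI replicate 1 the difference was 0.97, and without GSI replicate 2 it was 1.71. Among genes of this list with an unadjusted p above 0.05, Foxm1 was at -0.036, Lin9 at 0.042, Lin52 at -0.097 and Lin54 at 0.018. Rbl1, E2f4 and E2f8 were at -0.055, -0.20 and 0.048. The other 3 higher genes with an unadjusted p below 0.05 were also named after their values were seen. These were Rbl2, encoding the pocket protein p130 of the DREAM complex, Lin37, encoding a MuvB subunit, and E2f7, encoding a repressing E2F. They differed by 0.37, 0.36 and 0.43 (limma, adjusted p = 0.0708, 0.101 and 0.12). With both GSI arrays above both DMSO arrays in each, they passed in 2, 2 and 1 of the 7 alternatives that kept all arrays. Over all 11 alternatives their differences were 0.31 to 0.39, 0.29 to 0.43 and 0.32 to 0.54.

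The neighbouring phase offers the closest comparison. Of 37 measured G1/S and DNA replication genes none was called, unadjusted p-values below 0.05 were reached by 2 higher and 6 lower genes, a share near the 21.5% of all genes, and 30 means were lower with GSI, with a median of -0.11. Of all 18193 genes 9635 means were lower. GSI replicate 2 lay above GSI replicate 1 by a median of 0.12 in the 37 G1/S genes. In the mitotic set 16 of 33 means were lower and the median was 0.012, and the difference between these lists was not tested. The G1/S genes with the smallest p were E2f2, a transcription factor of S phase entry, at 0.43 (limma, adjusted p = 0.0520), and Cdk2, the kinase partner of cyclins E and A, at 0.41 (adjusted p = 0.0562). Of the 6 lower genes, Gins2 and Mcm10 had the smallest p, at -0.34 and -0.36 (limma, adjusted p = 0.106 and 0.149). The second E2f2 probe set, at a mean level of 7.63, was at 0.57. The second Cdk2 probe set was dim, at a mean level of 2.28, and differed by -0.052. E2f2 passed in 4 and Cdk2 in 3 of the 7 alternatives that kept all arrays. Over all 11 alternatives E2f2 was at 0.40 to 0.50 and Cdk2 at 0.18 to 0.43. The 0.18 of Cdk2 was the mean of its probe sets.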

How the data were processed

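Expression in T29 cells was measured on 4 Affymetrix arrays, 2 from GSI-treated and 2 from DMSO-treated cells, grouped by sample title. The deposited values are log2 expression made by the authors with RMA, per the submitters' processing notes, which name no version. Of 45101 probe sets, 64 controls were left out, and 34945 of the others named 1 gene. Of these, 34741 probe sets were matched by gene ID to GRCm38.p6 and took the symbol given there, changed or not. The brightest probe set of each gene over the 4 arrays gave 18193 genes. Groups were compared with limma 3.58.1 in R 4.3.3 (lmFit, eBayes; 5.8 total degrees of freedom), adjusted by Benjamini-Hochberg over all genes and tested on simulated data; the number of arrays limits the precision.

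All measured members of the set are named, as are the called genes of each further list other than the cell type markers or, with none called, the 2 with the smallest p. Of the markers, those named were chosen after their values were seen. Members and lists were chosen with earlier results of these data known. Alternatives changed the probe set per gene, the filter on dim genes, the variance prior, the normalization, the replicate block and the arrays included. Replicate numbers do not establish pairing: between the groups, replicate differences correlated at 0.085 over all genes.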

Additional observations from a re-analysis of the deposited data

How the results depend on the processing

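Among the 7 alternatives that kept all arrays, Ccnb2 was called with an intensity trend and robust prior. The others called no gene of the mitotic set. Over all genes, 466 higher and 284 lower calls became 1009 and 829 without dim genes, where the mitotic set had 0. They became 1042 and 899 with the trend and robust prior, where the set had 1. In both fits a larger share of all genes was called than in the main fit. The reading of 0 calls as near the background was made for the main fit only. With arrays centred on their medians 479 genes were called lower. With the replicate block there were 147 higher and 70 lower calls, and 1 mitotic gene against 2 had an unadjusted p under 0.05. With 1 array left out, the lone array of a group was assumed to vary like the pair of the other. There were then 0 to 1 higher and 0 to 5 lower calls over all genes, 0 to 2 mitotic genes at an unadjusted p under 0.05, and a median of the set of -0.036 (without GSI replicate 2) to 0.027. Of 363 differences of the mitotic genes under alternatives, 15 in 9 genes turned sign, and none was larger than 0.34 without its sign. As means of their probe sets Ttk was at 0.14 and Nusap1 at -0.029, and with centred arrays Aurka was at -0.017 and Bub3 at -0.015. Leaving out 1 array gave Aurkb -0.20 to 0.097, Ttk -0.046 to 0.027, Birc5 -0.14 to 0.048, Tacc3 -0.13 to 0.055, Aurka -0.073 to 0.098, Bub3 -0.023 to 0.052, Kif23 -0.11 to 0.023 and Anln -0.17 to 0.032. The causes were not tested.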
